A study of Rattus norvegicus with 4 samples.

Results

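Integrins are paired receptors, 1 alpha and 1 beta subunit each, that fasten a cell to its extracellular matrix and link that matrix to the actin cytoskeleton. The alpha subunit largely sets which matrix protein is bound, while the tail of the beta subunit recruits talin, kindlins and the kinases of the adhesion site. In heart muscle they are known for holding the costamere to laminin and for sensing stretch, and in cardiac fibroblasts for attachment to fibronectin, vitronectin and collagen. Genes of 10 integrin subunits known from these cells were looked up by symbol among the 15731 genes of the deposited table, and 9 were found, each in a single row. They were 7 alpha subunits (Itga1, Itga3, Itga5, Itga6, Itga7, Itga9 and Itgav) and 2 beta subunits (Itgb1 and Itgb3), while Itgb5, which encodes a further partner of the alpha v subunit, was not analysed here.

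The 4 libraries came from wild type Wistar rat ventricular cardiomyocytes taken at postnatal day 1, cultured and transfected with Lipofectamine RNAiMAX and a synthetic mimic of human hsa-miR-25-3p, hsa-miR-93-5p or hsa-miR-106b-5p, or of the nematode miRNA cel-miR-67 as control. RNA was harvested 72 h after transfection, and the mimic concentration is 25 nM in the transfection protocol but is written with another unit in the description of RNA extraction. Each mimic has 1 library, so the spread between cultures was not measured, no p-value is given, and every difference below is a difference between sequenced libraries. Levels are RPKM values, in which the reads of a gene are scaled to its exon length and to the size of the library, so that genes can be compared with each other. A gene was tested where its RPKM was above 1.0 in both libraries compared, and it was called higher or lower past a ratio of 1.3, which is 0.38 on the log2 scale.

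The mature miRNAs are shown because their seeds (bases 2 to 8, in capitals) sort the mimics into 2 families. The sequences are the rat forms in RefSeq, 5′ to 3′, on build GRCr8, where the 3 cluster members lie on the minus strand at chr12:22157103-22157123, chr12:22156894-22156916 and chr12:22156652-22156673 in the order printed. The last, miR-92a, was not transfected and is given as a relative of miR-25.
rno-miR-106b-5p: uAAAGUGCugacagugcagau
rno-miR-93-5p: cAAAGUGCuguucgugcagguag
rno-miR-25-3p: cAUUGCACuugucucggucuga
rno-miR-92a-3p: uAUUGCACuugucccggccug
miR-106b and miR-93 share the seed AAAGUGC, whose perfect match in a transcript reads GCACTTT. miR-25 shares the seed AUUGCAC with miR-92a, and its match reads GTGCAAT. Itga5 and Itgav have been described as targets of the miR-25/92 family. Transcript sequences were not used here, so no binding site was looked for.

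Reads on listed genes numbered between 15175309 and 18797375 per library, and the 9 integrin genes had between 311 and 69603 reads each. Of 12 cardiomyocyte markers looked up, 11 had a row, all of them above RPKM 1.0 in every library, and their summed RPKM was 8220.5 with miR-25, 12592 with miR-93 and 15139 with miR-106b against 15945.5 in the control library. Fibroblast markers were present as well, at a summed RPKM of 352, 768, 665 and 853 in the same order, with 1 or 2 of 12 genes at or below RPKM 1.0. Smooth muscle and pericyte markers summed to 2084, 612, 717 and 778, endothelial markers to between 4.09 and 5.37, and leukocyte markers to between 15.0 and 22.1. Cldn5, a tight junction gene of endothelium, was listed at 0 in the control and miR-106b libraries, and no other marker was listed at 0. In such mixed cultures, fewer cells of a type and less RNA per cell cannot be told apart, and the part of the cell mixture in the integrin differences was not tested.

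In the control library Itgb1, the beta subunit that can pair with each of these alpha subunits, was by far the most abundant member, at an RPKM of 632, which placed it 46th among all genes. Its RPKM was 3.22 times the summed RPKM of the 7 alpha members. Itga5, the alpha subunit of the classical fibronectin receptor, came next at 46.3, followed by Itga9, whose product binds tenascin C and related ligands, at 39.8. Itga6 at 28.1, Itga7 at 27.2 and Itgav at 26.9 followed, and the counting intervals of these neighbours overlapped. Itga1, a collagen receptor subunit, had an RPKM of 21.3, Itgb3, which forms the vitronectin receptor with alpha v, 10.4, and Itga3, a laminin receptor subunit, 6.56.

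**Figure D1:**
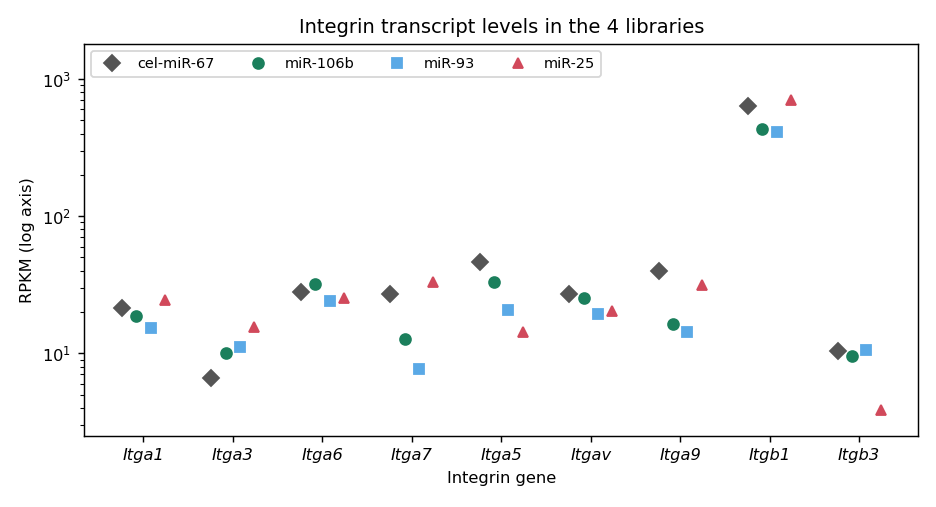
RPKM (log axis) of the 9 integrin genes in the control library (diamonds) and with miR-106b (circles), miR-93 (squares) and miR-25 (triangles), 1 library each. Itgb1 lies between 409 and 698 and the other members at 46.3 or below, and the order of Itga5 and Itga7 differs between the control and miR-25 libraries.

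Most of the 9 members were called lower with miR-93, and fewer with miR-106b and miR-25. With miR-106b, 4 of 9 were lower and 1 higher, where 12.7% of all tested genes were lower and 11.9% higher. With miR-93, 6 of 9 were lower against 15.6% of all tested genes, and 1 was higher against 15.1%. With miR-25, 3 of 9 were lower against 22.6%, and 1 was higher against 19.3%. The members' median log2 fold change was -0.15 for miR-25, -0.48 for miR-93 and -0.19 for miR-106b, while the medians of all tested genes were -0.012, -0.0018 and -0.0033. The 3 comparisons use the same control library, so that library's own deviations enter each of them. All of the called differences also lay beyond counting error, as judged by 95% exact intervals from the reads recovered behind the RPKM values.

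**Figure D2:**
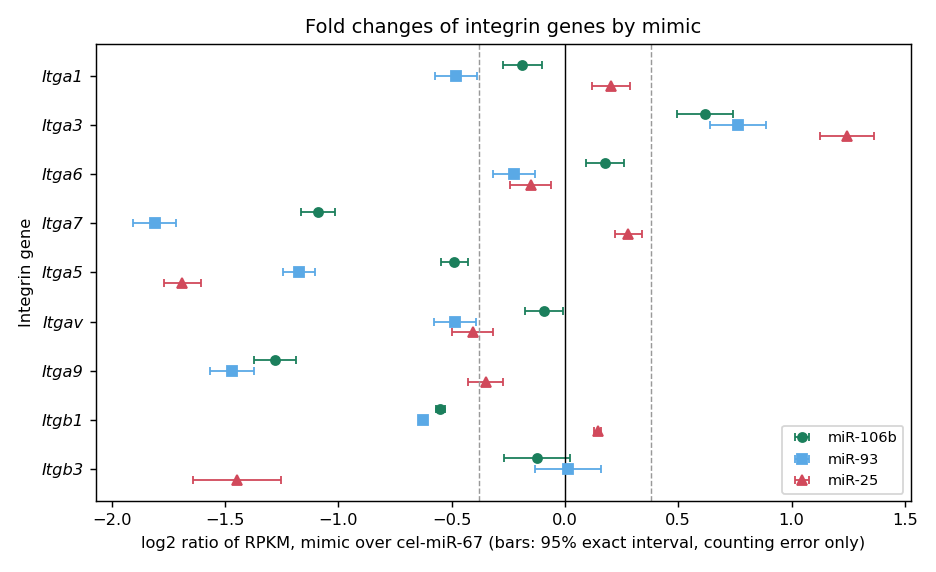
Log2 ratio of RPKM of each mimic over cel-miR-67 for the 9 integrin genes, with 95% exact intervals that cover counting error only. Dashed lines mark 1.3-fold. Itga3 lies to the right of 0 and Itga5 to the left of 0 with all 3 mimics. With miR-106b and miR-93, Itga7 and Itga9 lie far left and Itgb1 a little left of the dashed line. With miR-25, Itga7, at 0.28, and Itgb1, at 0.14, lie right of 0 within the dashed lines. Itga9, at -0.35, lies near the left dashed line, which its interval crosses.

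Among the fibronectin and vitronectin receptor subunits, Itga5 was lower with every mimic. Its RPKM was 14.4 with miR-25, 20.5 with miR-93 and 33.0 with miR-106b, against 46.3 in the control library, and the reads behind these values numbered 1720, 2464, 4313 and 4614. The control library was the highest of the 4 and the miR-25 library the lowest. With miR-25 the log2 fold change was -1.69 (95% exact interval -1.77 to -1.61), a 3.22-fold lower level, and only 0.839% of all tested genes were lower still. With miR-93, which has the other seed, it was -1.17 (-1.24 to -1.10), a 2.26-fold lower level, and 1.77% of tested genes were lower. With miR-106b it was -0.49 (-0.55 to -0.43).

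Itgav, the second subunit named with Itga5 as a target of the miR-25/92 family, differed much less. Its RPKM was 20.3 with miR-25, 19.2 with miR-93 and 25.2 with miR-106b, against 26.9 in the control library. The miR-25 and miR-93 libraries were close to each other and below the other 2. The log2 fold changes of -0.41 for miR-25 (-0.50 to -0.32) and -0.48 for miR-93 (-0.58 to -0.39) were just past the 1.3-fold limit, and that of -0.09 for miR-106b (-0.18 to -0.01) was within it. Both calls were lost when RPKM was rescaled to the reads on listed genes, at -0.26 for miR-25 and -0.34 for miR-93. With miR-25, 21.1% of all tested genes were lower than Itgav. The ratio of Itga5 to Itgav RPKM was 0.709 with miR-25, 1.07 with miR-93 and 1.31 with miR-106b, against 1.72 in the control library, so Itga5 was the more abundant of the pair everywhere but with miR-25.

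Itgb3, which pairs with alpha v in the vitronectin receptor, was past the limit with miR-25 and with no other mimic. Its RPKM was 3.83 with miR-25, 10.5 with miR-93, 9.58 with miR-106b and 10.4 in the control library, and the reads numbered 311, 857, 850 and 705. The miR-25 library stood apart from the other 3, which were close together. The log2 fold change with miR-25 was -1.45 (-1.64 to -1.25), a 2.73-fold lower level, with 1.68% of tested genes lower still. The values of 0.01 for miR-93 (-0.13 to 0.16) and -0.12 for miR-106b (-0.27 to 0.02) have intervals that include 0, so no difference from the control library was detectable at this depth.

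The laminin receptor subunits did not share a direction. Itga7 encodes the alpha subunit of the main laminin receptor of striated muscle, formed with the product of Itgb1, and smooth muscle makes it too. Its RPKM was 33.0 with miR-25, 7.73 with miR-93 and 12.8 with miR-106b, against 27.2 in the control library. Both libraries of the AAAGUGC seed were below the control library and the miR-25 library was the highest. The log2 fold change was -1.81 for miR-93 (-1.91 to -1.72), a 3.51-fold lower level and the largest difference from control of any member, and 0.479% of tested genes were lower still. It was -1.09 for miR-106b (-1.17 to -1.01) and 0.28 for miR-25 (0.22 to 0.34), the last within the 1.3-fold limit.

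Itga3, a laminin receptor subunit best known from epithelia, was the only member called higher, and it was so with all 3 mimics. Its RPKM was 15.5 with miR-25, 11.1 with miR-93 and 10.1 with miR-106b, against 6.56 in the control library, and the reads numbered 2263, 1627, 1599 and 795. The control library was the lowest of the 4. The log2 fold change was 1.24 for miR-25 (1.13 to 1.36), a 2.37-fold higher level, 0.76 for miR-93 (0.64 to 0.89) and 0.62 for miR-106b (0.49 to 0.74). All 3 ratios have the same control value beneath them, and a low control library cannot be told apart from a rise common to the mimics.

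Itga6, the third laminin receptor subunit, stayed within the 1.3-fold limit with each mimic. Its RPKM was 25.3 with miR-25, 24.0 with miR-93 and 31.8 with miR-106b, against 28.1 in the control library. The log2 fold changes were -0.15 (-0.24 to -0.06), -0.23 (-0.32 to -0.13) and 0.18 (0.09 to 0.26) in that order, all beyond counting error and all small. They depended on the scaling of the libraries. On rescaling to the reads on listed genes they were -0.0035 with miR-25, -0.08 with miR-93 and 0.26 with miR-106b.

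Itga1, the collagen receptor subunit, showed RPKM values of 24.5 with miR-25, 15.2 with miR-93, 18.7 with miR-106b and 21.3 in the control library. It was called lower with miR-93, at a log2 fold change of -0.48 (-0.57 to -0.39), a call that was lost at -0.34 on the same rescaling, and stayed within the limit at 0.20 for miR-25 and -0.19 for miR-106b.

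Itga9 had RPKM values of 31.2 with miR-25, 14.4 with miR-93, 16.4 with miR-106b and 39.8 in the control library. The libraries of the shared seed were close together and well below the other 2. The log2 fold change was -1.28 for miR-106b (-1.37 to -1.19), the lowest of the members with that mimic, and 0.522% of all tested genes were lower. It was -1.47 for miR-93 (-1.57 to -1.37) and -0.35 for miR-25 (-0.43 to -0.27), the last within the limit.

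Itgb1, whose product enters most integrin pairs of these cells, was lower with both mimics of the shared seed, as Itga5, Itga7 and Itga9 were. Of these genes, only Itga5 was lower with miR-25 too. Its RPKM was 698 with miR-25, 409 with miR-93, 431 with miR-106b and 632 in the control library, and the reads numbered 69603, 40864, 46954 and 52393. The log2 fold change was -0.63 for miR-93 (-0.65 to -0.61), -0.55 for miR-106b (-0.57 to -0.53) and 0.14 for miR-25 (0.13 to 0.16). The intervals are narrow because the gene is deeply read, and they say nothing of the spread between cultures. Its RPKM stayed between 2.92 and 4.25 times the summed RPKM of the 7 alpha members, with the lowest ratio for miR-106b and the highest for miR-25.

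The make-up of the alpha subunit transcripts differed accordingly. Their summed RPKM was 164 with miR-25, 112 with miR-93 and 148 with miR-106b, against 196 in the control library. Itga5 held 8.75% of that sum with miR-25, 18.3% with miR-93, 22.3% with miR-106b and 23.6% in the control library. Itga7 held 20.1%, 6.89%, 8.63% and 13.8% in the same order. Thus the ratio of Itga7 to Itga5 RPKM was 2.30 with miR-25, against 0.377 and 0.387 with the other mimics and 0.587 in the control library. Itga3 held 3.35% in the control library and between 6.80% and 9.92% with the mimics. The share of Itga6 was 14.3% in the control library and 21.5% with miR-106b, although its own level stayed within the limit.

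**Figure D3:**
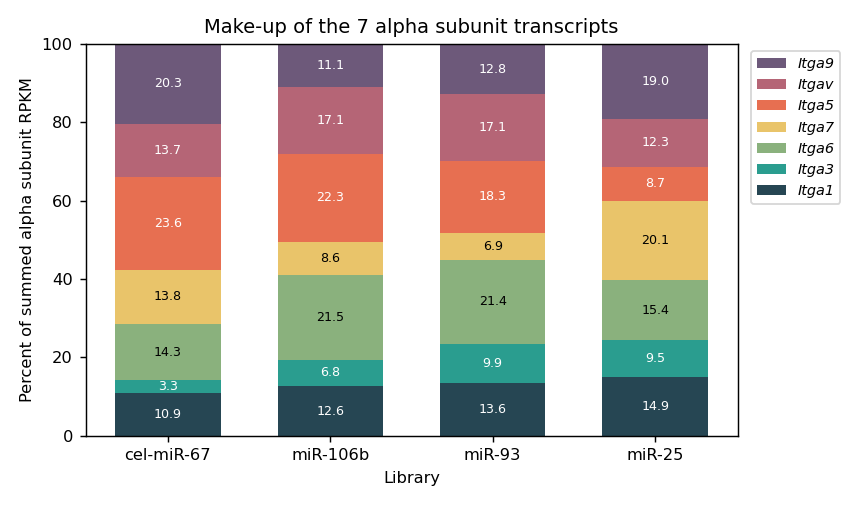
Percent of the summed RPKM of the 7 alpha subunit genes that each gene held in each library. The Itga5 segment shrinks from 23.6% in the control library to 8.75% with miR-25, and the Itga7 segment from 13.8% to 6.89% with miR-93.

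Ratios between mimic libraries do not use the control library, and they were not rescaled to the reads on listed genes. Between miR-93 and miR-106b, which share a seed, 4 of 9 members were lower with miR-93 and none higher past 1.3-fold, against 8.21% and 7.30% of all tested genes. These were Itga7 at a log2 ratio of -0.72 (-0.82 to -0.62), Itga5 at -0.68 (-0.76 to -0.61), Itga6 at -0.40 (-0.49 to -0.32) and Itgav at -0.39 (-0.48 to -0.30). Itga6 and Itgav were just past the 1.3-fold limit, and their intervals reach within it. Itgb1, at -0.08 (-0.10 to -0.06), and Itga9, at -0.19 (-0.30 to -0.08), were close between these libraries.

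Set against miR-106b, miR-25 gave 5 members higher and 2 lower, where 22.1% of all tested genes were higher and 23.0% lower. Set against miR-93, the counts were again 5 and 2 of 9, against 22.1% and 23.0% of all tested genes. Itga1, Itga3, Itga7, Itga9 and Itgb1 were the 5 higher members both times, and Itga5 and Itgb3 the 2 lower. Both comparisons use the same miR-25 library, so that library's own deviations enter each of them. The largest ratio of the members was that of Itga7 in miR-25 over miR-93, at 2.09 (2.00 to 2.18), which is 4.26-fold. Itga5 had log2 ratios of -1.20 (-1.28 to -1.12) over miR-106b and -0.52 (-0.60 to -0.43) over miR-93, and Itgb3 of -1.32 (-1.52 to -1.14) and -1.46 (-1.65 to -1.27). Itgav did not differ between miR-25 and miR-93 beyond counting error, at 0.08 (-0.02 to 0.17), and neither did Itga6, at 0.07 (-0.02 to 0.16).

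**Figure D4:**
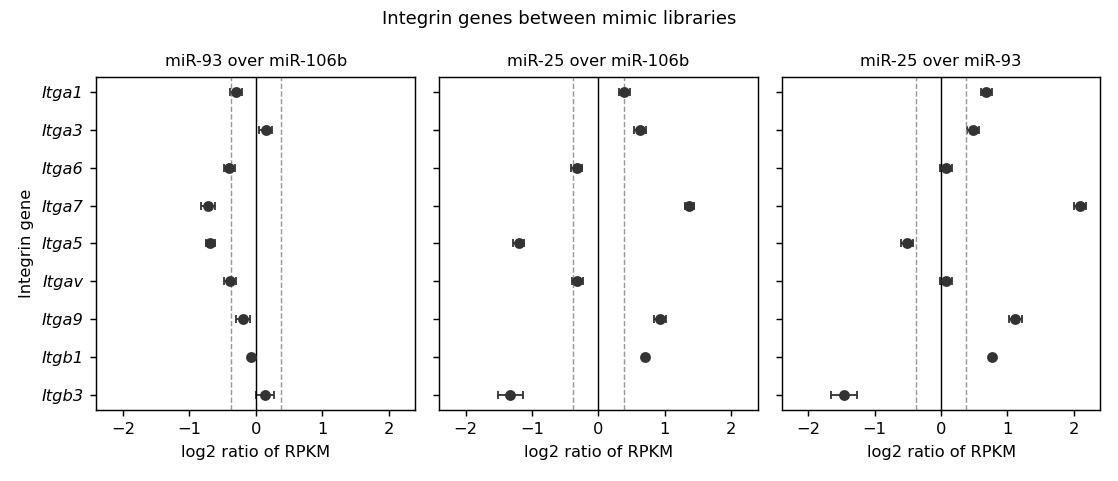
Log2 ratio of RPKM between mimic libraries for the 9 integrin genes, with 95% exact intervals of counting error and dashed lines at 1.3-fold. In both panels with miR-25, Itga7 lies farthest right, at 1.37 and 2.09, and Itgb3 farthest left, at -1.32 and -1.46.

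Of 15 other integrin subunit genes in the table, 10 were at or below RPKM 1.0 in every library, among them the leukocyte subunits Itgal, Itgam, Itgax and Itgb2 and the platelet subunit Itga2b. Itga4, a receptor subunit for fibronectin and VCAM-1, was lower with miR-25, at an RPKM of 17.4 against 27.6 in the control library and a log2 fold change of -0.66, but stood at 0.23 for miR-93 and 0.11 for miR-106b. Itga8, which binds nephronectin and fibronectin, was lower with both mimics of the shared seed, at -0.60 for miR-93 and -0.94 for miR-106b from a control RPKM of 11.7, and stood at -0.05 for miR-25. Itgb8, a partner of alpha v that takes part in the activation of latent TGF-beta, was lower with all 3 mimics, at -0.91 for miR-25, -0.40 for miR-93 and -0.94 for miR-106b, from a control RPKM of 3.33. Itga11, a collagen receptor subunit of fibroblasts, was higher with miR-93, at 0.54, and with miR-25, at 0.57, and Itgb4, the laminin receptor subunit of hemidesmosomes, was higher with miR-25 at 0.61. Both were scarce, with control RPKM values of 1.604 and 2.08.

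More integrin ligand genes were called lower than higher with each mimic. Of 28 ligand genes in the table, 9 of 23 tested were lower and none higher with miR-106b, where 12.7% of all tested genes were lower and 11.9% higher. With miR-93, 13 of 24 were lower and none higher, against 15.6% and 15.1%. With miR-25, 12 of 24 were lower and 3 higher, against 22.6% and 19.3%. The list medians were -0.34, -0.40 and -0.36 on the log2 scale. Among the lowest with miR-106b were Postn, the gene of periostin, at -1.16 and Lamc1 at -0.67, and with miR-93 Lamb3 at -2.22 and Lama4 at -1.10. Lamb3 encodes a laminin chain of epithelial basement membranes, and Lamc1 and Lama4 encode chains of the basement membrane around muscle cells and vessels.

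With miR-25 the lowest ligand genes were fibrillar collagen and laminin genes, namely Col1a2 at -1.87, Lama2 at -1.44 and Col3a1 at -1.33. Lama2 encodes the alpha chain of the laminin that surrounds mature muscle fibres. The ligand genes called higher included Spp1, the gene of osteopontin, at 1.57 and Lama5 at 0.66. Fn1, the gene of fibronectin, was named here after its values were seen because it encodes the ligand of Itga5. It was within the limit with every mimic, at 0.03 for miR-106b, -0.13 for miR-93 and -0.32 for miR-25. Col1a1, Col1a2, Col3a1 and Postn also stand in the fibroblast marker list, of which 5 of 10 tested genes were lower with miR-106b, 6 of 11 with miR-93 and 7 of 11 with miR-25, against 12.7%, 15.6% and 22.6% of all tested genes.

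Of 37 genes of adaptors and kinases that join integrin tails to actin, 7 of 36 tested were lower and 2 higher with miR-106b, where 12.7% of all tested genes were lower and 11.9% higher. With miR-93 there were 13 lower and 2 higher of 35, against 15.6% and 15.1%. With miR-25 there were 5 lower and 7 higher of 36, or 13.9% and 19.4%, against 22.6% and 19.3%. The list medians were -0.14, -0.21 and -0.01. Tns1, the gene of tensin 1, which binds beta subunit tails and actin, was the lowest tested gene for both mimics of the shared seed, at -0.88 for miR-106b and -1.17 for miR-93. With miR-106b it was followed by Ptk2b at -0.84 and Bcar1 at -0.49, genes of a focal adhesion kinase relative and of a docking protein. Ptk2b lay near the RPKM cutoff, at 1.03 with miR-106b, 1.004 with miR-25 and 1.84 in the control library. With miR-93 its RPKM was 0.530, so it was not tested there, and its log2 ratio of -1.79 was below that of Tns1. With miR-93 Tns1 was followed by Flnc, the muscle filamin, at an RPKM of 30.3 against 60.4 in the control library. Next came Itgb1bp2, the gene of melusin, a muscle protein that binds the tail of the beta 1 subunit, at -0.81.

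Itgb1bp2 was lower with miR-25 too, at -0.78, where its RPKM was 80.1, against 78.8 with miR-93, 108 with miR-106b and 138 in the control library. Itgb1, the gene of its binding partner, stood at 0.14 for miR-25. Fhl2, a LIM protein gene of heart muscle whose product binds integrin tails, had RPKM values of 81.4 with miR-25, 343 with miR-93, 308 with miR-106b and 215 in the control library. At -1.40 it was the lowest of the list for miR-25, where Ptk2b stood at -0.87, and at 0.67 for miR-93 and 0.52 for miR-106b it was called higher. Src, the gene of a kinase that acts at adhesions, was higher with all 3 mimics, at 0.60 for miR-25, 0.66 for miR-93 and 0.75 for miR-106b from a control RPKM of 4.57. The highest of the list with miR-25 were Actn1, the alpha-actinin of non-muscle cells and smooth muscle, at 0.69, and Nedd9 and Pxn, scaffold genes of adhesions, both at 0.63.

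**Figure D5:**
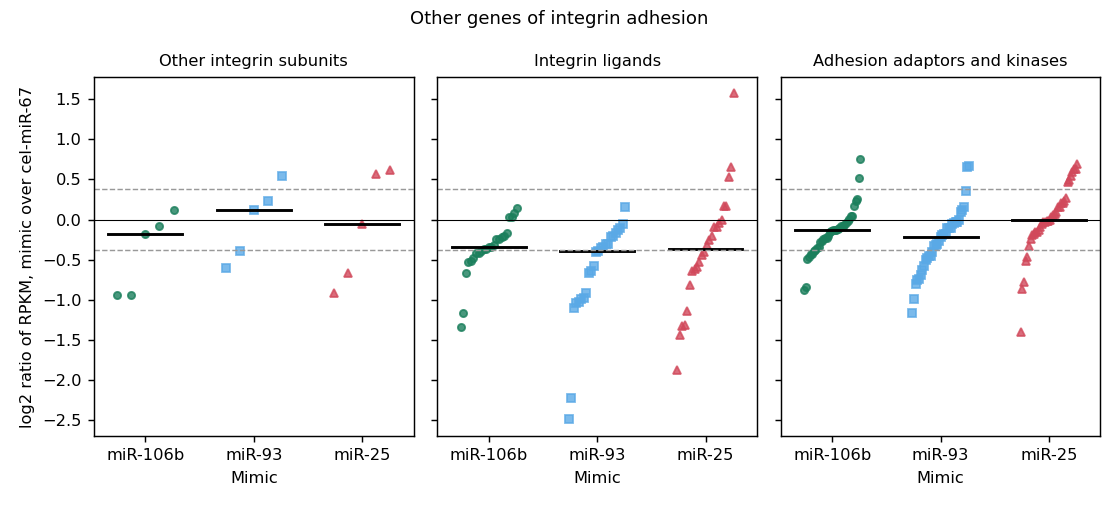
Log2 ratio of RPKM of each mimic over cel-miR-67 for each tested gene of 3 lists, sorted within each mimic, with the list median as a black bar and dashed lines at 1.3-fold. The ligand medians lie at -0.34, -0.40 and -0.36, and those of the adaptors and kinases at -0.14, -0.21 and -0.01.

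Marker lists differed from the control library too. With miR-25, 10 of 11 cardiomyocyte markers were called lower and 1 higher, with a median of -0.98. Of the smooth muscle and pericyte markers, 6 of 8 were called higher and 2 lower, with a median of 1.21. Of all tested genes, 22.6% were lower and 19.3% higher with that mimic. In the miR-25 library Itga5, Itgav and Itgb3 were lower and Itga3 was higher. The other members, Itga7 at 0.28 and Itgb1 at 0.14 among them, were within the limit. Itga5, Itga7, Itga9 and Itgb1 were lower, and Itga3 higher, with both miR-106b and miR-93. With these mimics the cardiomyocyte medians were -0.06 and -0.22 and the smooth muscle medians -0.27 and -0.30. The fibroblast medians were -0.64 with miR-25, -0.39 with miR-93 and -0.37 with miR-106b. The part of these markers' cells in the integrin values was not tested. Of the leukocyte list, 4 of 10 genes in the control library and 3 to 5 with the mimics were at or below RPKM 1.0.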

How the data were processed

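RNA of 4 rat cardiomyocyte cultures was sequenced, with 1 library per mimic. As the methods and the submitters' processing notes state, the authors removed adaptors with Cutadapt, mapped the reads to Rnor 6.0 using STAR 2.7 and turned rounded counts per gene into RPKM values with the edgeR package. The counting program is not given in the sources used here. The deposited RPKM values cover 15731 genes, and the values given per sample are the same as in the joint table. A symbol listed more than once (176 names) entered the counts over all genes and none of the lists.

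Fold changes are ratios of deposited RPKM values without a pseudocount. Within a library, 1 read of a given gene is always worth the same RPKM, so whole reads were recovered for 15731 genes as the smallest numbers within 2e-05 (plus 1e-09 per read) of whole that also give a whole gene length of at least 50 bases, at library sizes solved from the values. Those sizes are not whole numbers and may hold a normalization factor. The recovered reads sum to 16460231 reads for miR-25, 16520194 for miR-93, 18797375 for miR-106b and 15175309 for cel-miR-67. If all reads of a gene and its length share a factor, the recovered reads are too few and the interval too wide. The 95% exact intervals are Clopper-Pearson intervals of the share of reads in one library and cover counting error only. The steps were tested on simulated data.

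Members and lists were chosen with earlier results of these data known. All members were named, as was every other subunit above RPKM 1.0 in all libraries, and for ligands and adaptors the 3 highest and 3 lowest called genes per mimic, except for 1 gene that is not reported here. Values were computed with pandas 2.3.3, scipy 1.17.1 and numpy 2.4.6 in Python 3.11.15 and drawn with matplotlib 3.10.9.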

Additional observations from a re-analysis of the deposited data

How the results depend on the processing

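No paired analysis was possible because there is 1 library per mimic. A pseudocount of 0.1 or 1 RPKM, or centring on the median tested gene, changed no call of an integrin member. Reads on listed genes came to 60.4% of the size solved from the RPKM values for miR-25, 60.5% for miR-93, 63.2% for miR-106b and 66.9% for cel-miR-67, which may not be shares of sequenced reads, since those sizes may hold a normalization factor. Rescaling to the reads on listed genes moved the median of all tested genes to 0.14, 0.14 and 0.08 for the mimics in that order. It took Itga1 and Itgav below the 1.3-fold limit with miR-93, where the members' median became -0.34, and with miR-25 it took Itgav below the limit and Itga7 above it, so that 2 members were higher and the median was -0.0035. With an RPKM cutoff of 10, which left out Itga3 for each mimic, Itgb3 for miR-25 and miR-106b and Itga7 for miR-93, 0 members were higher with any mimic and the median for miR-106b was -0.49. A fold cutoff of 1.5 brought the number of lower members to 2 for miR-106b, 4 for miR-93 and 2 for miR-25. The members lower for miR-93 were then no longer most of the 9. A cutoff of 2 left 2 lower and 0 higher with miR-106b and 3 lower and 0 higher with miR-93. Depth sets the width of the intervals, and the spread between cultures cannot be had from 1 library each.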
